A study of Mus musculus with 2 samples.

Results

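Lysosomal acidification, hydrolase and membrane protein genes were followed in microglia, the macrophages that live in the brain, isolated from demyelinated corpus callosum. The set held 34 genes, taken by symbol from the 27998 genes of the count matrix: 16 of the proton pump (the Atp6 genes and Tcirg1), 14 of the hydrolases with their helper proteins, and 4 of the lysosomal membrane. Both groups came from mice labelled C57Bl6 with the genotype CX3CR1 that had been fed cuprizone, a copper chelator that kills oligodendrocytes, for 4 weeks. 1 droplet library was made from microglia of the medial corpus callosum and 1 from the lateral, and no untreated library was analysed here. The cells were sorted by flow cytometry and not cultured. The sources used here do not give the allele behind the genotype label, the gate or how many mice each library holds.

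The lysosome is the acidic compartment in which cells break down what they have engulfed, and microglia in demyelinating white matter use it to clear myelin debris. Its acidity comes from the V-ATPase, a rotary pump with a cytosolic V1 part that splits ATP and a membrane V0 part that carries protons. Acid hydrolases then cut sugars, lipids and proteins, helped by activator proteins that present membrane lipids to them, while heavily glycosylated membrane proteins line the inside of the vesicle. Transcription factors of the TFEB family are known to act on many lysosomal genes through promoter elements built around the letters CACGTG.

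That element was looked for in the promoters of the set. Members were chosen by symbol and not by this element. It is already known from lysosomal genes, so a high share among the members is not independent support. RefSeq promoters on GRCm38.p6, 300 bases long with 250 before a gene's start, were at hand for 29 of the 34 members. CACGTG, which reads the same on both strands, was found for 10 of these 29 genes (34.5%), against 8.09% of the 27025 genes in the table and 22.0% of 82 other lysosomal genes. The longer form GTCACGTG, on either strand and always holding the shorter one, was found for 7 of 29 members (24.1%) against 2.55% of all genes and 15.9% of the other lysosomal genes. They were Atp6v0b and Atp6v0d1 of the pump, Gla, Glb1 and Lgmn of the hydrolases, and Lamp1 and Mcoln1 of the membrane proteins. CACGTG with GT before it and AC after it was in 0 of 29 members and 0.370% of all genes. Of the 82 other lysosomal genes 3 (3.66%) held it. At least 2 copies of CACGTG lay in 4 members, Atp6v0b, Gla, Lamp1 and Mcoln1, or 13.8%, against 0.681% of all genes. A match is a description of these letters and not evidence of a bound site. Stretches before the start are printed for 4 members from the 3 roles, 5′ to 3′ on the gene's strand, with every CACGTG in capitals. They are chr8:13159070-13159160 (plus strand) for Lamp1, chr4:117887330-117887395 (minus) for Atp6v0b, chrX:134601164-134601255 (minus) for Gla and chr9:114401000-114401065 (plus) for Glb1.
Lamp1: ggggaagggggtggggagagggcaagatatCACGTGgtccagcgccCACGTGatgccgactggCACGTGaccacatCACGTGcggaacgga
Atp6v0b: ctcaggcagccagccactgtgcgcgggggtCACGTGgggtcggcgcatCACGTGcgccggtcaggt
Gla: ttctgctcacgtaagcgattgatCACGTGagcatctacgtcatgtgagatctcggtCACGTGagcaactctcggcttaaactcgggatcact
Glb1: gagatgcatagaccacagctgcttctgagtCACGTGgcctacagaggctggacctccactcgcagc
Lamp1 held 4 copies, the most of any member, between 61 and 15 bases before its start. Those of Atp6v0b began 36 and 18 bases before the start, those of Gla 227 and 194, and the single copy of Glb1 48.

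A barcode counted as a cell when it held at least 2400 unique molecular identifiers (UMIs, each a counted transcript molecule) with at most 10% of them mitochondrial. This left 2131 medial and 2308 lateral cells with medians of 10732 and 9694 UMIs, 23442512 and 23047682 UMIs in all, and 7 barcodes occurred in both libraries. Markers of microglia made up 311 and 318 of every 10000 UMIs. Each of 8 marker lists of other cell types came to at most 1.14, and the neutrophil list had 5 of 6 genes at 0 in both libraries. With 1 library per region there was no test between regions, and every interval in parentheses is a 95% interval that covers counting error only. Levels are in counts per 1000000 UMIs (CPM). Each UMI stands for the 3′ end of 1 transcript, so levels were not divided by gene length.

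The 34 genes were abundant to a like degree in both regions. Together they made up 1.77% of the medial and 1.85% of the lateral cells' UMIs, log2 ratio of medial over lateral -0.07 (-0.07 to -0.06). The hydrolases made up 1.063% and 1.102%, the proton pump 0.340% and 0.367%, and the membrane proteins 0.365% and 0.381%. Most hydrolase UMIs came from Lgmn, Grn, Hexa and Psap, so summed hydrolase values mainly follow these genes. Levels spanned a wide range, in nearly the same order in both libraries: the 6 highest members, Lgmn, Grn, Lamp1, Hexa, Psap and Laptm5, and the lowest, Atp6v0c, held the same ranks in each.

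**Figure D1:**
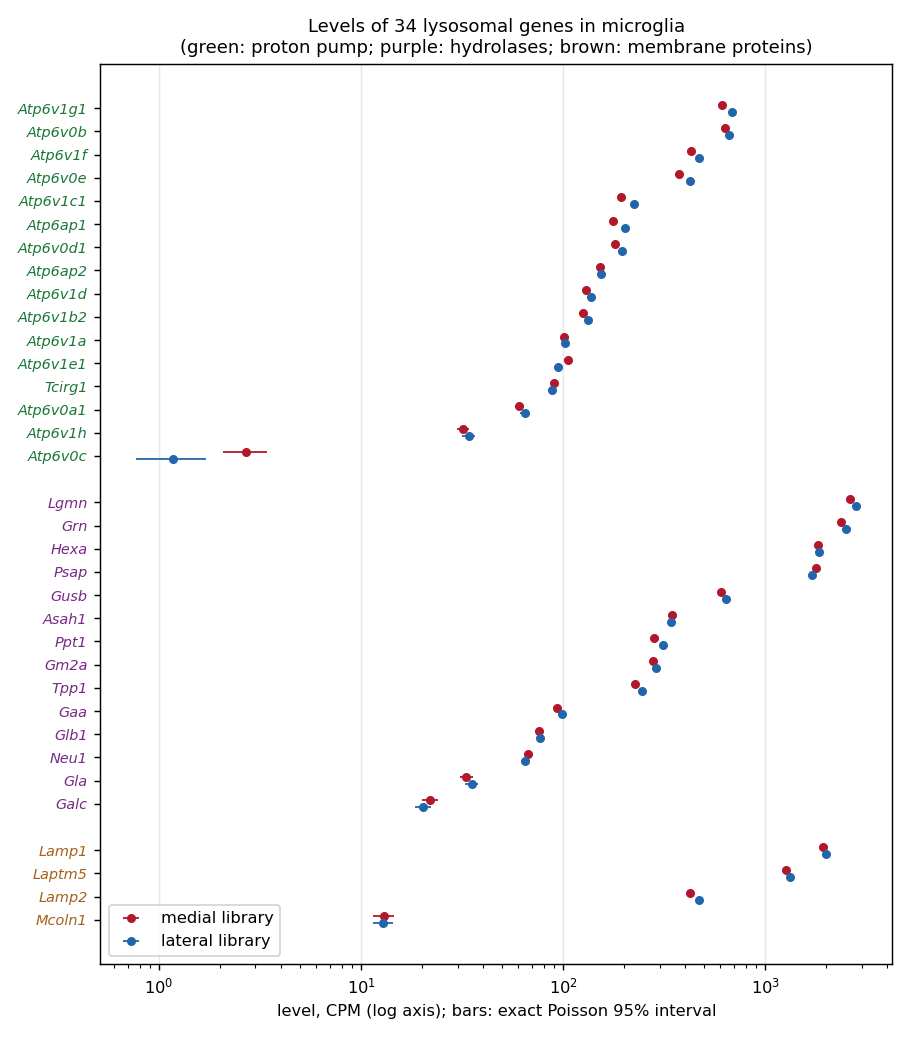
Level of each of the 34 genes (CPM, log axis) in the medial (red) and lateral (blue) library with exact Poisson 95% intervals, grouped by role and sorted by level. Lgmn is highest at 2620 and 2808 CPM and Atp6v0c lowest at 2.69 and 1.17 CPM, and the dots of both libraries nearly coincide for most genes.

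Within the V0 part of the pump, Atp6v0b, a proteolipid of the rotating ring, was at 631 CPM in medial and 661 CPM in lateral cells and was the pump gene with most UMIs in the medial library. Atp6v0e, a small V0 subunit, was at 374 and 426 CPM, a log2 ratio of -0.19 (-0.23 to -0.15). Atp6v0d1, which couples the ring to the central stalk, was at 181 and 196 CPM. The a subunits, which hold the proton channels, were lower: Tcirg1, the form known from osteoclasts, stood at 90.5 and 88.2 CPM, a log2 ratio of 0.04 (-0.05 to 0.13), and Atp6v0a1, the broadly expressed form, at 60.7 and 64.7 CPM. Atp6v0c, the main proteolipid of the ring, was counted at 2.69 CPM (63 UMIs) in medial and 1.17 CPM (27 UMIs) in lateral cells, a log2 ratio of 1.198 (0.53 to 1.91). That is far under its partner subunits in both libraries. None of the 57-base windows in the last 500 bases of its transcript occurred in another GENCODE M21 transcript (0%), though 31.2% of windows over the whole transcript did, most of them in the pseudogene Atp6v0c-ps2. How far its count reflects its true level was not tested, so its ratio is given as a value only.

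In the V1 part, Atp6v1g1, a peripheral stalk subunit, was at 614 and 683 CPM, a log2 ratio of -0.15 (-0.19 to -0.12), the pump gene with most UMIs over both libraries. Atp6v1f, of the central stalk, followed at 430 and 470 CPM, with 18.5% of its last windows shared with another transcript. Atp6v1c1, a subunit tied to the reversible assembly of V1 with V0, was at 193 and 224 CPM, a log2 ratio of -0.21 (-0.27 to -0.15), the lowest ratio of the set. Atp6v1e1, of the peripheral stalk, was at 105 and 93.8 CPM, a log2 ratio of 0.17 (0.08 to 0.25), the highest ratio among members with at least 100 UMIs. The catalytic subunit Atp6v1a was at 101 and 102 CPM and its partner Atp6v1b2 at 126 and 133 CPM. Atp6v1d was at 129 and 138 CPM and Atp6v1h, a regulatory subunit, at 31.99 and 34.02 CPM. Of the accessory proteins, Atp6ap1 was at 176 and 202 CPM, a log2 ratio of -0.20 (-0.26 to -0.14), and Atp6ap2, also known as the prorenin receptor, at 153 and 154 CPM. So the genes for subunits of 1 complex were counted at levels from 31.99 to 631 CPM in medial cells, Atp6v0c aside.

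Among the hydrolases, Lgmn (legumain, ENSMUSG00000021190, chromosome 12, 102394084 to 102439813, GRCm38), an asparagine-specific protease that matures cathepsins, was highest at 2620 CPM medial and 2808 CPM lateral, a log2 ratio of -0.10 (-0.12 to -0.08). Grn (ENSMUSG00000034708, chromosome 11, 102430315 to 102437048), which encodes progranulin, was at 2373 and 2520 CPM, a log2 ratio of -0.09 (-0.10 to -0.07). Hexa, the alpha chain of the hexosaminidase that degrades GM2 ganglioside, was at 1832 and 1854 CPM, a log2 ratio of -0.02 (-0.04 to 0.00). Psap (ENSMUSG00000004207, chromosome 10, 60277627 to 60302597), the precursor of the saposins that present sphingolipids to their hydrolases, was at 1775 and 1712 CPM, a log2 ratio of 0.05 (0.03 to 0.07). It was the 1 hydrolase gene whose whole interval lay above a ratio of 1.

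The remaining hydrolases were lower. Gusb, beta-glucuronidase, was at 602 and 638 CPM, the acid ceramidase Asah1 at 347 and 342 CPM, a log2 ratio of 0.02 (-0.02 to 0.07), and the GM2 activator Gm2a at 279 and 289 CPM. Ppt1, a thioesterase that removes fatty acids from proteins, was at 283 and 313 CPM, a log2 ratio of -0.15 (-0.20 to -0.10), and Tpp1, a tripeptidyl peptidase, at 227 and 246 CPM, a log2 ratio of -0.11 (-0.17 to -0.06). Both are known as genes of neuronal ceroid lipofuscinosis. Gaa, which breaks down glycogen, was at 93.0 and 98.3 CPM, the beta-galactosidase Glb1 at 76.0 and 76.7 CPM, and the sialidase Neu1 at 67.4 and 65.0 CPM, a log2 ratio of 0.05 (-0.05 to 0.15). The alpha-galactosidase Gla was at 33.2 and 35.2 CPM. Galc, which degrades the myelin lipid galactosylceramide, was lowest at 22.0 and 20.3 CPM, a log2 ratio of 0.11 (-0.07 to 0.29). Galc was thus the hydrolase gene with the fewest UMIs in both libraries.

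Of the membrane proteins, Lamp1 (ENSMUSG00000031447, chromosome 8, 13159161 to 13175338), a main glycoprotein of the lysosomal lining, was at 1937 and 1999 CPM, a log2 ratio of -0.05 (-0.06 to -0.03). Of its last windows 27.3% were shared with the neighbouring gene Grtp1, with matches on either strand counted. Laptm5, a lysosomal membrane protein of blood lineage cells, was at 1271 and 1326 CPM, a log2 ratio of -0.06 (-0.08 to -0.04). Lamp2, needed for the fusion of autophagosomes and for chaperone-mediated autophagy, was at 424 and 468 CPM, a log2 ratio of -0.14 (-0.18 to -0.10). Mcoln1, a calcium channel of the lysosome, was at 12.9 and 12.9 CPM, a log2 ratio of 0.00 (-0.23 to 0.24). Lamp1 was thus the level neighbour of Hexa, and Mcoln1 stood lowest of this role in both libraries.

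The comparison of regions asks whether microglia differ in these genes between the medial and the lateral side. Members were close to equal, with a small lean to the lateral library. None of the 33 members with at least 100 UMIs reached a ratio of 1.2 in either direction (0 higher and 0 lower in the medial library), where 7.42% of all 9843 genes with at least 100 UMIs did so on the medial side and 7.49% on the lateral side. Among the 4672 genes with at least 1000 UMIs, nearer to the members in depth, these shares were 4.73% and 2.27%, and 0 of the 31 members with that many UMIs were past it. All 31 lay within the central 95% of those genes, from -0.26 to 0.37 on the log2 scale. Only Atp6v0c, at 90 UMIs in all, exceeded the ratio of 1.2. With each cell thinned to 4000 UMIs, Atp6v0a1 and Atp6v1h also passed it on the lateral side, at log2 ratios of -0.30 and -0.30.

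The ratio of medial over lateral was below 1 for 26 of 33 members, against 59.1% of genes with at least 100 UMIs. Their median log2 ratio was -0.08, beside -0.04 over those genes. The whole interval lay below a ratio of 1 for 18 of the 33 and above it for 2, Psap and Atp6v1e1, against 18.2% and 11.1% of all genes with at least 100 UMIs. Intervals narrow with depth: each of these members had at least 1000 UMIs, where the shares over all genes were 28.5% and 15.6%. By role, the median over members with at least 30 UMIs was -0.09 for the pump, -0.07 for the hydrolases and -0.05 for the membrane proteins. Summed UMIs gave -0.11 (-0.13 to -0.10), -0.05 (-0.06 to -0.04) and -0.06 (-0.08 to -0.05) in that order. The lean was not the same in every setting. The hydrolase median was -0.00076 with each cell thinned to 4000 UMIs. Their summed log2 ratio of medial over lateral was 0.10 (0.07 to 0.13) among cells low in homeostatic genes. It was 0.04 (0.02 to 0.07) among cells high in immediate early genes, ranges described further on. Among cells low in homeostatic genes, all members together stood at 0.04 (0.02 to 0.06). There the pump was at -0.03 (-0.07 to 0.02) and the membrane proteins at -0.04 (-0.09 to 0.01). Among cells low in disease-associated genes the membrane proteins were at -0.01 (-0.06 to 0.04). In every other range the intervals of the pump and of the membrane proteins lay below a ratio of 1. No replicate library measures the spread between mice.

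**Figure D2:**
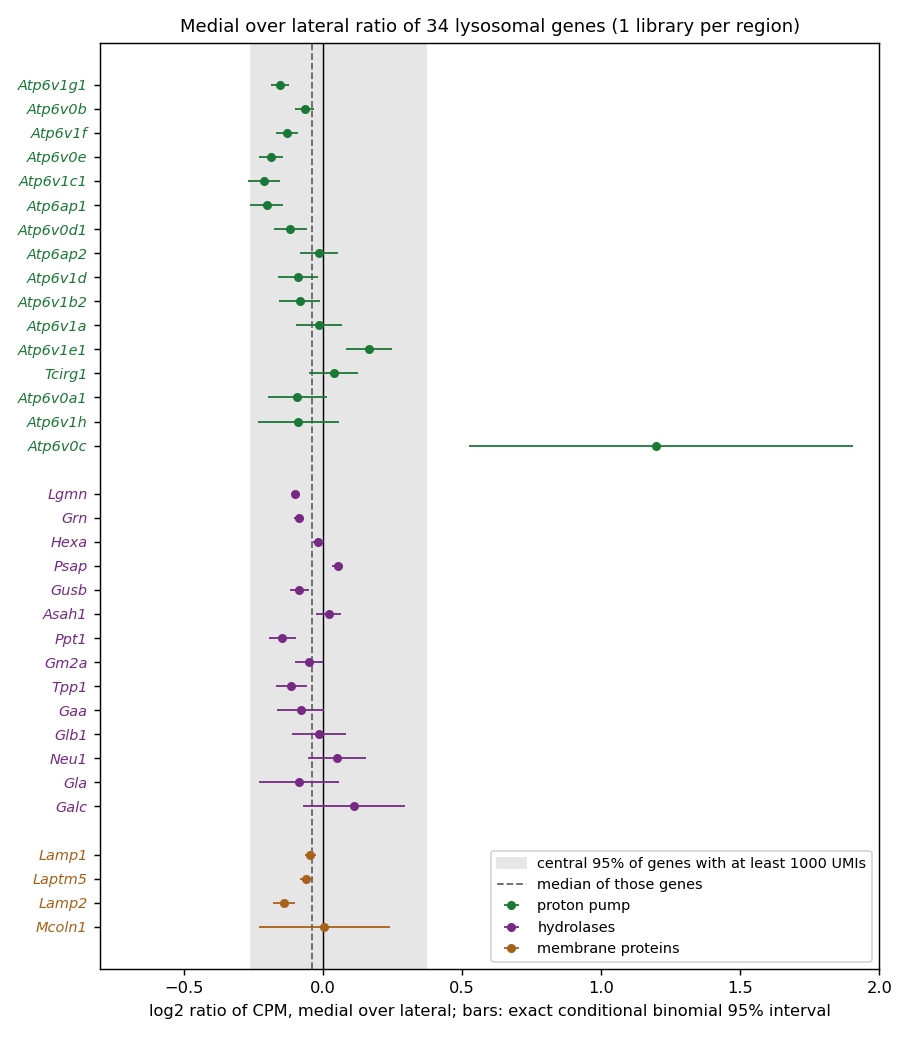
Log2 ratio of CPM, medial over lateral, for each of the 34 genes with its exact conditional binomial 95% interval, coloured by role. The grey band holds the central 95% of genes with at least 1000 UMIs (-0.26 to 0.37), the dashed line is their median (-0.04), and of the 34 points Atp6v0c, counted at 90 UMIs, is the 1 outside the band.

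The other genes of the lysosome formed 4 lists of 104 genes in all. Of 92 with at least 100 UMIs, 2 reached a ratio of 1.2 on the medial side and 5 on the lateral side, set beside the 7.42% and 7.49% above, and their median was -0.07. On the medial side were pump subunits: Atp6v0a2 at 38.8 and 31.5 CPM, a log2 ratio of 0.30 (0.16 to 0.44), and Atp6v0d2 at 6.06 and 3.34 CPM, a log2 ratio of 0.86 (0.45 to 1.28). On the lateral side were the pump assembly factor Tmem199 at 18.1 and 22.0 CPM, the arylsulfatase Arsa, which cleaves the myelin lipid sulfatide, at 13.4 and 16.8 CPM, a log2 ratio of -0.32 (-0.54 to -0.10), the serine carboxypeptidase Scpep1 at 81.8 and 98.4 CPM, the potassium channel Tmem175 at 14.6 and 18.1 CPM, and Tmem55b, which helps position lysosomes, at 77.6 and 93.8 CPM. The most abundant genes of 3 of these lists were a little lower in the medial library: the tetraspanin Cd63 at 2195 and 2502 CPM, the small GTPase Rab7 at 313 and 351 CPM, and the pump assembly factor Vma21 at 61.8 and 72.2 CPM. Subunit forms known from kidney or testis, Atp6v1b1, Atp6v1e2 and Atp6v1g3, had 0 UMIs in the cells of both libraries, which allows up to 0.128 CPM in medial and 0.130 CPM in lateral cells for each (3 counts per library).

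To compare single cells at the same depth, each cell was thinned to 4000 UMIs, which left out 148 medial and 261 lateral cells below that depth. Lgmn, Grn, Hexa and Lamp1 then had a UMI in over 99% of cells of both libraries, for example Grn in 99.9% (99.6% to 99.99%) of medial and 99.8% (99.4% to 99.9%) of lateral cells. Of the pump genes, Atp6v0b had a UMI in 90.6% and 92.5% of cells, Tcirg1 in 28.5% and 28.5%, and Atp6v0c in 1.26% and 0.293%. Without thinning these shares were 98.2% and 97.1% for Atp6v0b, 59.0% and 53.5% for Tcirg1, and 2.82% and 1.17% for Atp6v0c. Mcoln1 had a UMI in 4.08% and 4.84% of thinned cells and in 12.8% and 11.8% of unthinned ones. Free RNA can add such UMIs, and no cell type that lacks these genes was present to measure it. In barcodes of 1 to 50 UMIs the members stood at 0.643 times (Galc) to 1.59 times (Atp6v0c) their level in medial cells. In the lateral library they stood at 0.676 times (Tpp1) to 1.41 times (Atp6v1e1). Free RNA thus held all members, some below and some above their level in cells. Tpp1 was at 0.659 times and Atp6v1e1 at 1.54 times in the medial library.

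The summed share varied from cell to cell, in percentage points most for the hydrolases, which also had the highest share. In medial cells the hydrolases took a median of 1.02% of UMIs (5th to 95th percentile 0.575% to 1.68%), and in lateral cells 1.02% (0.525% to 1.73%). Their SD between cells was 0.338 and 0.380 percentage points, where counting alone gives 0.162 and 0.163. The pump took a median of 0.325% and 0.350% with an SD of 0.106 and 0.108, near the 0.0916 and 0.0953 of counting alone. The membrane proteins took 0.350% and 0.375%, SD 0.115 and 0.125 against 0.0952 and 0.0980. Relative to their level the roles were closer. The 95th percentile was 2.91 and 3.29 times the 5th for the hydrolases in medial and lateral cells. It was 3 and 2.75 times for the pump, and 3.24 and 3 times for the membrane proteins. Across cells the hydrolase and membrane protein shares correlated at r = 0.302 in 1983 medial and r = 0.342 in 2047 lateral cells, while the pump share correlated with the hydrolase share at 0.0829 and 0.111. These values describe cells of 1 library each, which share their free RNA and dissociation.

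**Figure D3:**
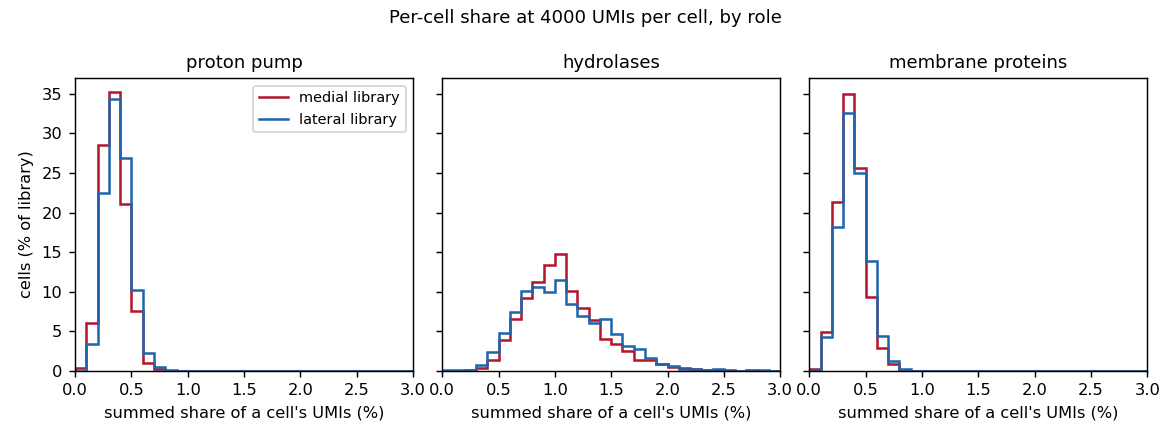
Share of each cell's UMIs taken by the proton pump, the hydrolases and the membrane proteins (horizontal axis, percent, at 4000 UMIs per cell) against the percentage of cells of each library. The lateral pump curve lies a little to the right of the medial one, with 22.5% against 28.5% of cells in the bin that starts at 0.2%. In percentage points the hydrolases spread widest, around a median of 1.02% in both.

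For single genes the spread was expressed as the excess squared coefficient of variation, the part beyond counting error. Over the 15 members with a mean of at least 1 UMI per thinned cell, its median was 0.0729 in medial and 0.0943 in lateral cells, beside 0.0982 over 558 and 0.0899 over 561 genes at that level. None of the 15 (0) lay above the 90th percentile of these genes in either library. The lowest among them were pump subunits, Atp6v1f at 0.0341 and 0.00785 and Atp6v0b at 0.0381 and 0.0247. The highest were hydrolase genes, Gm2a at 0.298 and 0.233, Psap at 0.232 and 0.221 and Lgmn at 0.220 and 0.228. At the planned lower minimum, a mean of 0.1 UMIs, 31 members had medians of 0.0818 and 0.101. All genes at that level had 0.133 and 0.125. There, 1 member lay above the 90th percentile in each library, the pump gene Atp6v1h. It stood at 0.601 and 0.776, where the percentiles were 0.596 and 0.599.

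The members were then followed along ranges of cell state. Within each library, thinned cells were ranked by their UMIs of a state list holding none of the members, and the upper and lower 25% of cells were compared, with members scaled to the UMIs outside the list. Other genes tied to the lysosome were on these lists, such as the cathepsin Ctsl on the disease-associated one and the cystatin Cst3 on the homeostatic one. Their weight in the ranking was not tested. A range cut in this way is not a cell type, and 42 to 81 cells per library lay at a cut value. The medial and lateral libraries are given side by side, and a gene is counted when its ratio reached 1.2 in both.

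Along the disease-associated range, ranked by genes such as Spp1, Lpl, Cst7 and Igf1 that microglia switch on near damage, most hydrolase genes were higher in the upper range in both libraries. Summed hydrolases stood at 1.19% of UMIs in upper and 0.955% in lower medial cells, a log2 ratio of 0.32 (0.29 to 0.35), and at 1.21% and 0.949% in lateral cells, 0.35 (0.32 to 0.37). Of 13 hydrolases with at least 100 UMIs in each library, 8 reached a ratio of 1.2 in both: Grn, Hexa, Psap, Asah1, Ppt1, Gaa, Glb1 and Gla. The membrane proteins Lamp1 and Lamp2 did so too, as did the pump accessory genes Atp6ap1 and Atp6ap2. In all 12 of 31 members were higher and 0 lower, against 6.04% and 16.6% of 4058 genes, and the members' median log2 ratio was 0.26 in medial and 0.27 in lateral cells, beside -0.11 and -0.13 over all genes.

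Grn was at 2752 CPM in upper and 1933 CPM in lower medial cells, a log2 ratio of 0.51 (0.45 to 0.57), and at 2894 and 1994 CPM in lateral cells, 0.54 (0.48 to 0.60). Glb1 was at 98.7 and 54.8 CPM in medial and 94.5 and 63.1 CPM in lateral cells. Asah1 was at 420.2 and 289.5 CPM in medial and 389 and 281 CPM in lateral cells. All of these genes, for progranulin, a galactosidase and a ceramidase, were thus higher in the upper range of each library, Glb1 by a log2 ratio of 0.85 in medial and 0.58 in lateral cells. Lamp2 was at 494 and 351 CPM in medial and 531 and 379 CPM in lateral cells, while Laptm5 differed less, at 1282 and 1262 CPM and at 1479 and 1300 CPM. Of the pump, Atp6ap1 was at 218 and 130.2 CPM in medial cells, a log2 ratio of 0.74 (0.52 to 0.97), and at 216 and 149.6 CPM in lateral cells, 0.53 (0.31 to 0.75). Core subunits with at least 100 UMIs differed less than Atp6ap1, though not all alike. Atp6v0e was at 465 and 353 CPM in medial and at 480 and 401 CPM in lateral cells. Atp6v1a was at 128 and 92.2 CPM and at 102 and 98.9 CPM. Atp6v0b was at 698 and 624 CPM in medial and at 739 and 618 CPM in lateral cells. Tcirg1 was at 79.8 and 96.3 CPM and at 90.9 and 88.5 CPM. Of 15 pump genes, 3 had opposite directions in the 2 libraries, Tcirg1 among them. Summed pump genes had log2 ratios of 0.22 (0.17 to 0.27) and 0.22 (0.18 to 0.27).

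Along the homeostatic range, ranked by genes such as P2ry12, Tmem119 and Cx3cr1 that mark microglia of healthy brain, summed hydrolases were also higher in the upper range, while the summed pump genes were not. Summed hydrolases stood at 1.23% and 0.912% in medial cells, a log2 ratio of 0.43 (0.41 to 0.46), and at 1.31% and 0.853% in lateral cells, 0.62 (0.59 to 0.64). Most UMIs of these sums came from Lgmn, Grn, Hexa and Psap, and not every hydrolase gene was higher. Summed pump genes had -0.10 (-0.15 to -0.05) in medial and 0.02 (-0.03 to 0.06) in lateral cells. Of 30 members, 11 were higher by 1.2 in both libraries and 0 lower, against 10.3% and 18.9% of 4043 genes. They were Asah1, Gaa, Glb1, Grn, Hexa, Lgmn and Psap of 13 hydrolases, Lamp2 and Laptm5 of 3 membrane proteins, and Atp6ap1 and Tcirg1 of 14 pump genes.

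Psap differed most among abundant members, at 2428 and 1362 CPM in upper and lower medial cells, a log2 ratio of 0.83 (0.76 to 0.90), and at 2171 and 1189 CPM in lateral cells, 0.87 (0.80 to 0.94). Lgmn was at 2842 and 2187 CPM in medial and at 3274 and 2050 CPM in lateral cells. Tpp1 went the other way, at 205 and 270 CPM in medial cells, a log2 ratio of -0.40 (-0.59 to -0.21), and at 236 and 282 CPM in lateral cells, -0.26 (-0.44 to -0.08). So did the stalk subunit Atp6v1g1, at 543 and 703 CPM and at 634 and 743 CPM. Galc had few UMIs, 30 and 62 in medial and 28 and 52 in lateral cells, log2 ratios of -1.02 (-1.70 to -0.37) and -0.87 (-1.59 to -0.18). Lamp1 was nearer equal, at 2103 and 1939 CPM and at 2253 and 1943 CPM, whereas Laptm5 was at 1519 and 1084 CPM and at 1648 and 1175 CPM. Lamp1 and Laptm5 thus traded places between the ranges, Lamp1 differing more along the disease-associated and Laptm5 along the homeostatic one in both libraries, a contrast that has no test here.

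**Figure D4:**
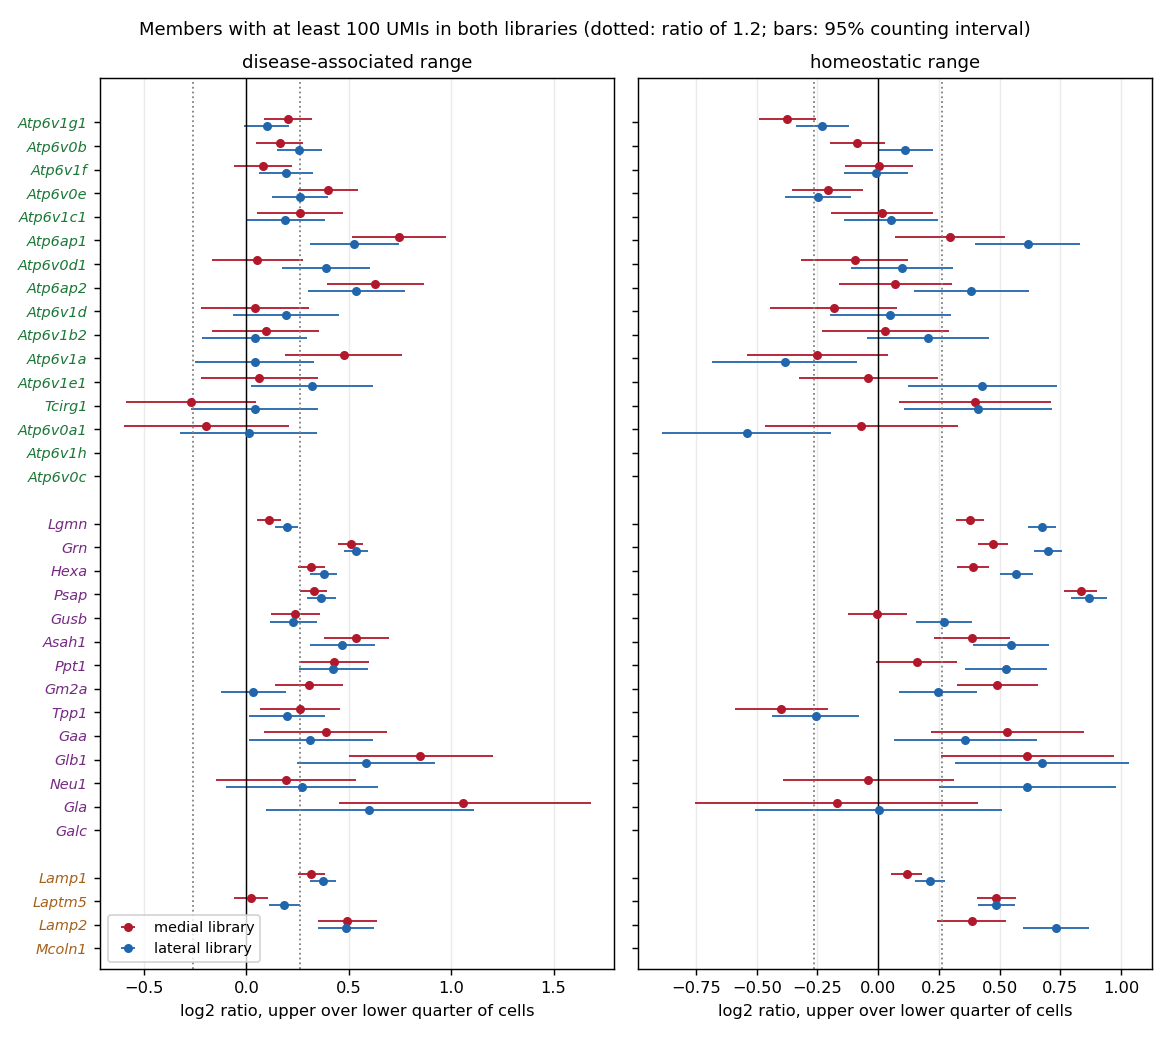
Log2 ratio of each gene between the upper and lower 25% of cells ranked by disease-associated genes (left) or homeostatic genes (right), in the medial (red) and lateral (blue) library, with 95% counting intervals, for the 30 members with at least 100 UMIs in both libraries. Dotted lines mark a ratio of 1.2, and most purple hydrolase rows lie to the right of 0 in both panels while the green pump rows scatter around 0 on the right.

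Each upper range held 25% of the cells. Of 495 medial cells in the upper disease-associated range 112 (22.6%) were also in the upper homeostatic range, and of 511 lateral cells 121 (23.7%). In the lower homeostatic range were 31.9% of these medial and 24.3% of these lateral cells. Of lower disease-associated cells, 26.1% of medial and 31.5% of lateral ones were in the lower homeostatic range. In the upper homeostatic range were 24.2% and 17.8% of them. Other measures moved with the ranges. Cells with proliferation transcripts, at least 3 UMIs from at least 2 cycling genes, made up 31.7% of upper and 38.6% of lower disease-associated medial cells, and 28.4% and 49.1% of lateral ones. Along the homeostatic range these shares were 24.6% and 41.4% in medial and 24.1% and 39.5% in lateral cells. Median mitochondrial shares were 2.13% and 2.35% along the medial and 2.27% and 2.86% along the lateral disease-associated range. Their depths before thinning had medians of 12042 and 9943 UMIs in medial and 11451 and 9143 UMIs in lateral cells. Along the homeostatic range the median depths were 10235 and 11600 UMIs in medial and 10404 and 10342 UMIs in lateral cells, with mitochondrial shares of 2.11% and 2.32% and of 2.35% and 2.76%. With proliferating cells left out, an alternative added once the data had been seen, the summed hydrolases had log2 ratios of 0.26 in both libraries along the disease-associated range, and 0.42 and 0.62 along the homeostatic range. The part of depth and of mitochondrial share in these ratios was not tested.

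Cells with many immediate early transcripts, which tissue dissociation is known to raise, differed in a few members. Of 31 members, 5 were higher by 1.2 in the upper range of both libraries, Gaa, Glb1, Neu1, Psap and Tcirg1, and 2 were lower, Atp6v0e and Atp6v1g1, against 16.2% and 8.33% of 4069 genes. Those shares are near the members' own, at 5 and 2 of 31. Gaa was at 128.7 CPM in upper and 75.6 CPM in lower medial cells and at 127 and 86.9 CPM in lateral cells. Atp6v1g1 was at 476 and 722 CPM in medial cells, a log2 ratio of -0.60 (-0.72 to -0.48), and at 620 and 752 CPM in lateral cells, -0.28 (-0.39 to -0.17). Of every 10000 UMIs, the immediate early list itself took 135 in medial and 104 in lateral cells. Without the 25% of cells highest in that list, the medial over lateral log2 ratio was -0.12 for Atp6v1g1 and -0.15 for Atp6v0e, beside -0.15 and -0.19 over all cells. The part of immediate early transcripts in the difference between regions was not tested.

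Cells with and without proliferation transcripts had summed log2 ratios between -0.13 and 0.02 in the 3 roles. Their median depths before thinning were 13648 and 10204 UMIs in medial and 12177 and 9502 UMIs in lateral cells, and the split itself rests on a count of UMIs. Of 32 members none (0) were higher by 1.2 in both libraries, against 12.6% of 6018 genes, and 1 was lower, the GM2 activator Gm2a, against 3.04%. Gm2a was at 254 CPM in 703 proliferating and 340 CPM in 1280 other medial cells, a log2 ratio of -0.42 (-0.55 to -0.29), and at 264 and 327 CPM in 743 and 1304 lateral cells, -0.31 (-0.43 to -0.19). The pump accessory gene Atp6ap2 was the nearest on the other side, at 166 and 138 CPM in medial and at 179 and 137 CPM in lateral cells. Psap was at 1652 and 1886 CPM in medial and at 1528 and 1721 CPM in lateral cells. Summed hydrolases had log2 ratios of -0.01 (-0.03 to 0.01) and -0.04 (-0.06 to -0.02).

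**Figure D5:**
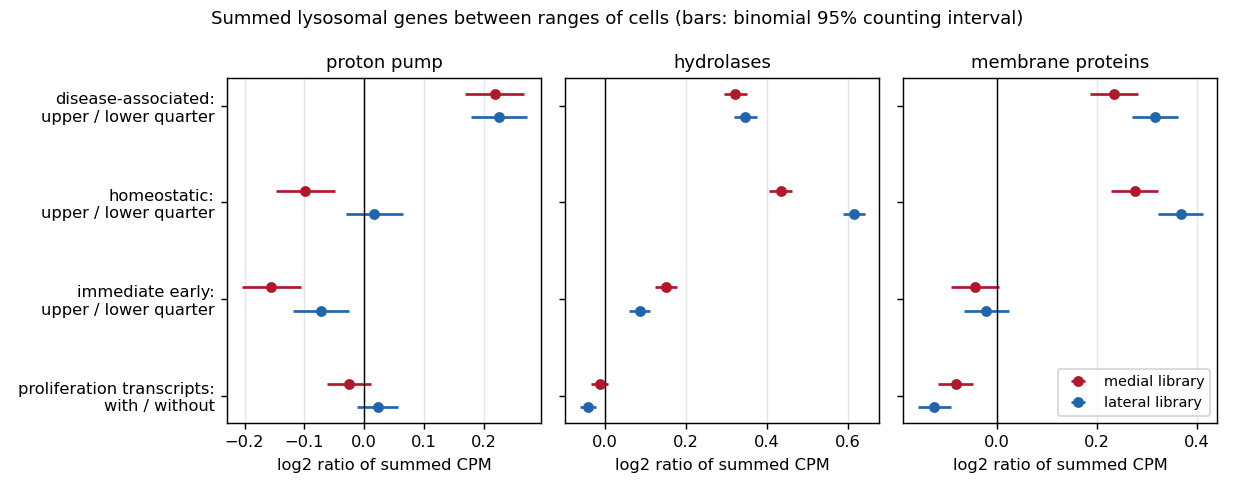
Log2 ratio of summed CPM between upper and lower ranges (or cells with and without proliferation transcripts) for the 3 roles, in the medial (red) and lateral (blue) library, with 95% counting intervals; each panel has its own horizontal scale. The hydrolases reach 0.43 and 0.62 along the homeostatic range where the pump lies at -0.10 and 0.02, and all roles lie between -0.13 and 0.02 for proliferation transcripts.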

How the data were processed

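Single-cell 3′ libraries of sorted microglia were made on a 10x Chromium, 1 per region, per the labels' protocols. The authors deposited raw UMI counts for 27998 genes and 737280 barcodes per library; Cell Ranger 2.0.1, STAR and mm10 are named in the submitters' processing notes, and the sources used here do not give the annotation. IDs that share a symbol (56 symbols) were summed. UMIs were summed over cells and scaled to CPM with exact Poisson intervals; ratios have exact conditional binomial 95% intervals, and Clopper-Pearson intervals go with cell shares. The ratio calculation was tested on simulated Poisson counts without variation between cells. That test cannot show how the intervals hold where cells vary. Thinning drew 4000 UMIs per cell without replacement. Doublets were not removed; Scrublet in scanpy 1.11.5 marked 5 barcodes in each library. Python 3.11.15, numpy 2.4.6 and scipy 1.17.1 were used. All 34 members are named, with ratio and interval for the member with most UMIs of each role, the 3 pump and hydrolase members and 1 membrane member farthest from a ratio of 1 in each direction by the nearer bound, and members past 1.2. Of each other lysosomal list the most abundant gene and those with at least 100 UMIs past 1.2 are named, except 1 most abundant gene that is not reported here. Ratios beyond these, and genes singled out within ranges, were chosen after their values were seen. Members and lists were chosen with earlier results of these data known. The planned protein identities were not computed, and Trbc1 of the lymphocyte markers was not analysed here. Shared windows were found in GENCODE M21 transcripts on either strand, so a shared window need not make a read ambiguous. Cells are not replicates, so no p-value is given.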

Additional observations from a re-analysis of the deposited data

How the results depend on the processing

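No paired analysis was possible because each region has 1 library, so no library could be left out either. Of 374 ratios of single members under 11 alternatives, 336 stayed within their counting interval and 37 moved beyond it. The sign changed 22 times: 1 time for a member whose interval lay on 1 side of a ratio of 1, Gm2a at 0.025 with cells thinned to 4000 UMIs, and 21 times for 7 members whose interval held 1 (Atp6ap2, Atp6v1a, Glb1, Hexa, Mcoln1, Neu1 and Tcirg1). Of 52 medians by role, 51 stayed within the members' bounds; that of the membrane proteins was -0.016 when centred on the median gene, which shifts all ratios by 0.04. The 1 member past a ratio of 1.2 became 2 at a ratio of 1.1, and the 0 members past it on the lateral side became 2 with thinned cells and 6 at a ratio of 1.1. Of 60 alternatives for the ranges, 35 stayed within the interval. With upper and lower 50% of cells, the disease-associated log2 ratios were 0.16 and 0.13 for the pump, 0.20 and 0.24 for the hydrolases and 0.16 and 0.24 for the membrane proteins (medial, lateral). In the same setting the homeostatic ratios were -0.047 for the medial pump, 0.26 and 0.39 for the hydrolases and 0.16 and 0.23 for the membrane proteins, and the immediate early ones -0.095 for the medial pump and 0.094 and 0.040 for the hydrolases. With cells thinned to 6000 UMIs, the disease-associated ratios were 0.25 and 0.32 for the hydrolases and 0.31 for the medial membrane proteins, the homeostatic ones 0.37 and 0.51 for the hydrolases, and the proliferation ones -0.12 for the medial membrane proteins and -0.015 for the lateral pump. Without proliferating cells, chosen after seeing the data, the disease-associated ratios were 0.26 and 0.26 for the hydrolases, and 0.17 for the pump and 0.22 for the membrane proteins in lateral cells. The cause of these shifts was not tested. Members under 100 UMIs in a range, such as Atp6v0c and Mcoln1, are limited by depth.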
